A study of Zea mays with 68 samples.

Results

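The comparison set stem internode 7-8 of the maize inbred line B73 against internode 6-7, using 6 of the 68 RNA-seq libraries of an atlas of 23 tissues. The members are the value columns that name these internodes and carry the numbers 2, 3 and 4 for each, so that 3 libraries of internode 6-7 stand against 3 of internode 7-8. The labels give both groups the genotype B73 and no treatment. The libraries are TruSeq libraries from polyA-selected total RNA that keep strand through dUTP. The labels give neither plant age, nor growth stage, nor whether the pieces called 6-7 and 7-8 share internode 7, nor whether each library is a different plant. The p-values below therefore cover library-to-library spread alone, part of which could be technical. A difference called a step here is the log2(FPKM + 1) value of internode 7-8 minus that of internode 6-7 within one number, where FPKM is fragments per kilobase of transcript, scaled to the mapped fragments of the library. On this scale the change of low genes is understated. No label says what the numbers mark, so the differences were fitted once with the number as a block and once without it.

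A grass stem lengthens from an intercalary meristem at the base of each internode, where cells divide before they elongate and then stiffen their walls. Cellulose is spun by plasma-membrane cellulose synthases that track along cortical microtubules made of tubulin, expansins loosen the wall during elongation, and lignin is laid down as growth ends. Gibberellin promotes internode elongation, KNOTTED-like homeobox (KNOX) genes keep cells in an undifferentiated state, and growth-regulating factors (GRFs) act with coactivators on cell proliferation. Young stems are green and also hold chloroplast transcripts.

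Few transcripts passed a test between the internodes. In bulk tissue, fewer cells of a type and less RNA per cell cannot be told apart. With the number as a block, 4 of 26608 tested genes were called, 0.015% of those tested, all lower in internode 7-8 (limma, Benjamini-Hochberg adjusted p under 0.05 and a log2 difference of at least 1). Without the block 38 were called, or 0.143%, of which 5 were higher (0.0188%) and 33 lower (0.124%), and these included all 4 of the blocked fit. At an unadjusted p under 0.05 there were 3765 genes with the block and 3781 without it. The block left 2 residual degrees of freedom in place of 4, and the standard error was smaller with it for 54.4% of genes. For a single gene, an exact permutation test of 3 libraries against 3 cannot go below p = 0.10, and an exact sign-flip test of 3 steps cannot go below p = 0.25.

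The 4 genes called with the block have identifiers only, and internode 7-8 was listed at 0 for each of them in every library. GRMZM2G532230 stood at 835, 807 and 678 FPKM in internode 6-7 numbers 2, 3 and 4. It was also listed at 729 FPKM in 1 spikelet column and 601 in 1 meristem column, and at 0 in the remaining 3 columns read as those tissues. GRMZM2G498809 stood at 161, 221 and 127 FPKM, GRMZM2G498535 at 16.2, 20.1 and 11.7 and GRMZM5G853640 at 13.7, 13.5 and 11.3. An exact 0 in these values can be a failed estimate, and jumps between high levels and 0 also occur inside one internode: every library has 8 to 25 genes at exactly 0 where both remaining libraries of its internode reach 10 FPKM. Among the 38 genes called without the block, 11 lower and 3 higher ones were at 0 in all libraries of one internode. When every such gene was left out, an alternative chosen after seeing the data, no gene was called with the block, although 3671 had an unadjusted p under 0.05, and 1 gene was called without it. That gene, GRMZM2G137352, for which the reference gives no name, stood at 38.5, 44.9 and 41.8 FPKM in internode 6-7 and 7.89, 8.08 and 9.18 in internode 7-8, a log2 difference of -2.19 (adjusted p = 0.0109 in that fit, and over all tested genes 0.0673 with and 0.00233 without the block).

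Libraries that share a number did not deviate together in every pair. Across the tested genes, which are not independent, Pearson's r of the deviations from the internode mean was -0.13 for number 2, 0.22 for number 3 and -0.13 for number 4. The highest value, 0.28, joined internode 6-7 number 2 to internode 7-8 number 4. Principal component 1 took up 38.2% of the variance. On it the internode 6-7 libraries lay at -22.0, -44.2 and -33.4. Internode 7-8 numbers 2 and 4 lay at 44.2 and 69.5, but number 3 lay at -14.2, nearer to internode 6-7 than to its own group. Pearson's r of log2(FPKM + 1) ran from 0.939 to 0.974 within internodes and from 0.926 to 0.962 between them. The most similar pair across internodes was that of number 3.

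**Figure D1:**
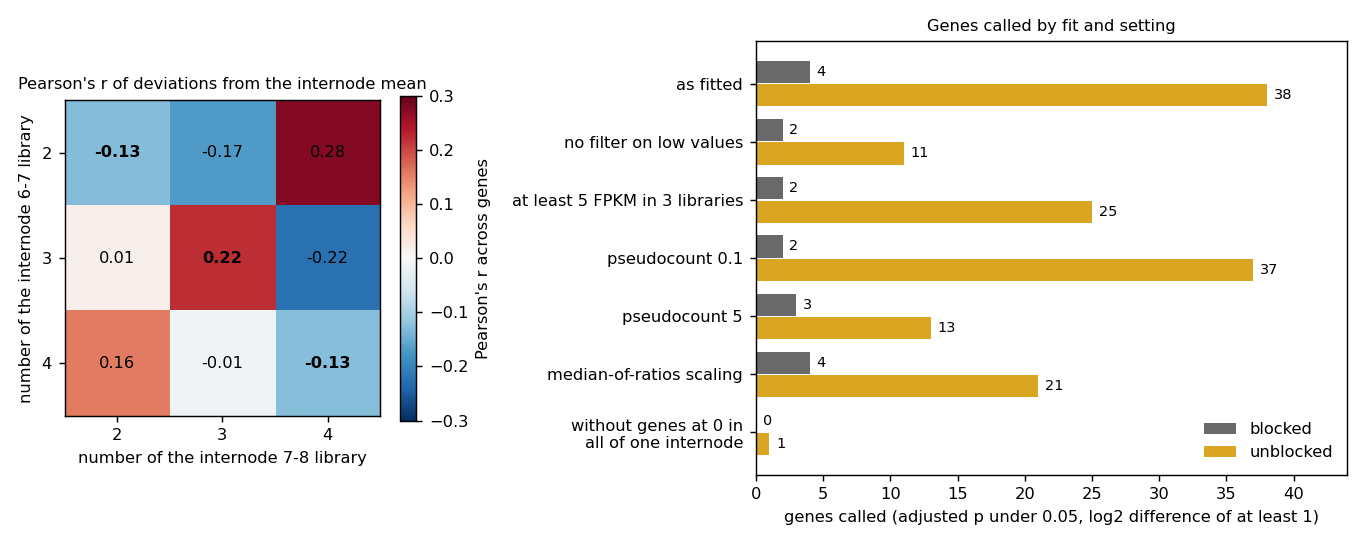
Left, Pearson's r across 26608 genes of each library's deviation from its internode mean, internode 6-7 numbers in rows and internode 7-8 numbers in columns, with same-number pairs in bold. Right, genes called with (grey) and without (gold) the number as a block, as fitted and under 6 other settings. Only 1 of 3 same-number pairs has a positive r, and the bars shrink to 0 and 1 once genes at 0 in all libraries of one internode are left out.

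The 5 named genes that passed the test without the block were all lower in internode 7-8, and all stepped down in each number. The beta-tubulin gene tub4 (GRMZM2G066191) stood at 136, 171 and 178 FPKM in internode 6-7 numbers 2, 3 and 4, and at 45.6, 57.4 and 56.8 in internode 7-8. Every internode 7-8 library thus held less tub4 than any internode 6-7 library. The log2 difference was -1.58 ± 0.16 (SE, n = 3 and 3) with a limma adjusted p of 0.0212 without the block and 0.10 with it. Its steps of -1.56, -1.56 and -1.63 were the most alike of the 5. Dwarf1 (GRMZM2G036340), the gibberellin 3-oxidase gene that makes the bioactive hormone, held 15.3, 17.9 and 15.0 FPKM against 5.92, 4.91 and 4.45. It also fell without overlap, with a log2 difference of -1.49 ± 0.17 and an adjusted p of 0.0322 without and 0.138 with the block. CP22 (GRMZM2G077333), also listed as psbs1, encodes the photosystem II protein of energy-dependent quenching. Its level was 20.5, 27.5 and 25.1 FPKM in internode 6-7 and 7.99, 9.58 and 6.78 in internode 7-8, a difference of -1.48 ± 0.18 with adjusted p of 0.0435 and 0.138. Fitted the same way, PMP3 (GRMZM2G477325), a small membrane proteolipid gene, held 435, 534 and 492 FPKM against 154, 179 and 227 (-1.39 ± 0.18, adjusted p = 0.0472 and 0.133). GR2b (GRMZM2G142705) held 17.6, 27.4 and 23.6 FPKM against 5.85, 6.27 and 3.87 (-1.91 ± 0.23, adjusted p = 0.0389 and 0.138). All 5 genes had separate internodes, as did 11.7% of all tested genes in this direction. Their calls were lost when the genes at 0 in all of one internode, or the filter on low values, were left out, and those of tub4, CP22, GR2b and PMP3 also after median-of-ratios scaling. The calls of CP22 and PMP3 were lost with a pseudocount of 5 or without the mean-variance trend as well. Leaving out any one library ended the calls of Dwarf1 and PMP3, leaving out any but internode 7-8 number 3 that of CP22, and leaving out internode 6-7 number 3 or 4 or internode 7-8 number 2 or 4 those of tub4 and GR2b. Over these alternatives without the block the adjusted p ran from 0.0175 to 0.106 for tub4, 0.0265 to 0.153 for Dwarf1, 0.0357 to 0.205 for CP22, 0.0374 to 0.205 for PMP3 and 0.0215 to 0.167 for GR2b.

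AN3 (GRMZM2G180246), a coactivator of GRFs that promotes cell proliferation in Arabidopsis leaves, led the named genes in upward steps, ordered by the smallest of the 3. Its values were 109.7, 81.2 and 89.6 FPKM in internode 6-7 and 369, 234 and 239 in internode 7-8, with steps of 1.74, 1.51 and 1.40. The lowest internode 7-8 library held more than the highest of internode 6-7, but AN3 passed neither fit (adjusted p = 0.103 with and 0.0626 without the block). Among the alternatives run it passed only in the unblocked fit that also held the 5 spikelet and meristem libraries (adjusted p = 0.0374). Of all tested genes, 17.1% stepped up and 21.1% stepped down in all 3 numbers. Steps of at least 0.5 in every number were rarer, at 1.21% upward and 2.61% downward, and steps of at least 1 each time were found in 0.143% upward and 0.492% downward.

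In all, 21 named genes at a mean of at least 5 FPKM stepped up by at least 0.5 in every number, and the first 10 by smallest step included genes of several regulator families besides AN3. The OVATE-family gene OFP29 (GRMZM2G127431) held 3.93, 2.90 and 2.83 FPKM against 12.9, 8.45 and 15.2, and yabby15 (GRMZM2G529859), a YABBY transcription factor gene, 9.13, 8.50 and 7.86 against 26.8, 16.7 and 23.9. Both were higher in every internode 7-8 library than in any of internode 6-7, with adjusted p of 0.143 and 0.153 with the block. The DOF zinc-finger gene dof3 (GRMZM2G179069), at 7.32, 3.60 and 5.41 FPKM against 15.3, 7.85 and 15.1, also stepped up each time. EREB161 (GRMZM2G021573), of the AP2/EREBP family, stood at 4.65, 3.09 and 2.95 FPKM against 13.7, 6.87 and 7.35. For sbp29 (GRMZM2G067624), an SBP-box gene, the values were 10.1, 12.9 and 9.72 FPKM against 23.3, 25.3 and 17.2, also without overlap. CYP78A53 (GRMZM2G092823), a cytochrome P450 gene, gst41 (GRMZM2G097989), a glutathione transferase gene, -Mlo5 (GRMZM2G471142) and pnFL-2 (GRMZM2G005954), also listed as TIFY15, completed the set. Of these gst41 was the most abundant, at 167, 123 and 165 against 321, 291 and 422 FPKM.

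Downward, 45 named genes at that mean stepped by at least 0.5 in every number, 4 of which (tub4, GR2b, CP22 and Dwarf1) were among the first 10 by smallest step. The glutathione transferase gene gst9 (GRMZM2G126763) stood at 29.0, 53.6 and 47.1 FPKM in internode 6-7 and 9.17, 17.3 and 12.2 in internode 7-8. Its steps of -1.56, -1.58 and -1.87 lay close together while its levels differed between numbers, and its adjusted p was 0.103 with the block and 0.0922 without it. The lipoxygenase gene lox12 (GRMZM2G106748) held 7.35, 12.3 and 11.3 against 2.09, 3.13 and 1.74 FPKM. Cel12Chr1 (GRMZM2G178025), a cellulase gene by its name, held 10.4, 7.81 and 8.59 against 2.83, 1.68 and 3.17 FPKM. MYB30 (GRMZM2G171781) and the homeobox gene HB110 (GRMZM2G061101) also had lower values in internode 7-8 in each number, the latter with an uneven step of -2.78 in number 4. The ferredoxin gene FDX1 was the remaining one and is described with photosynthesis.

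**Figure D2:**
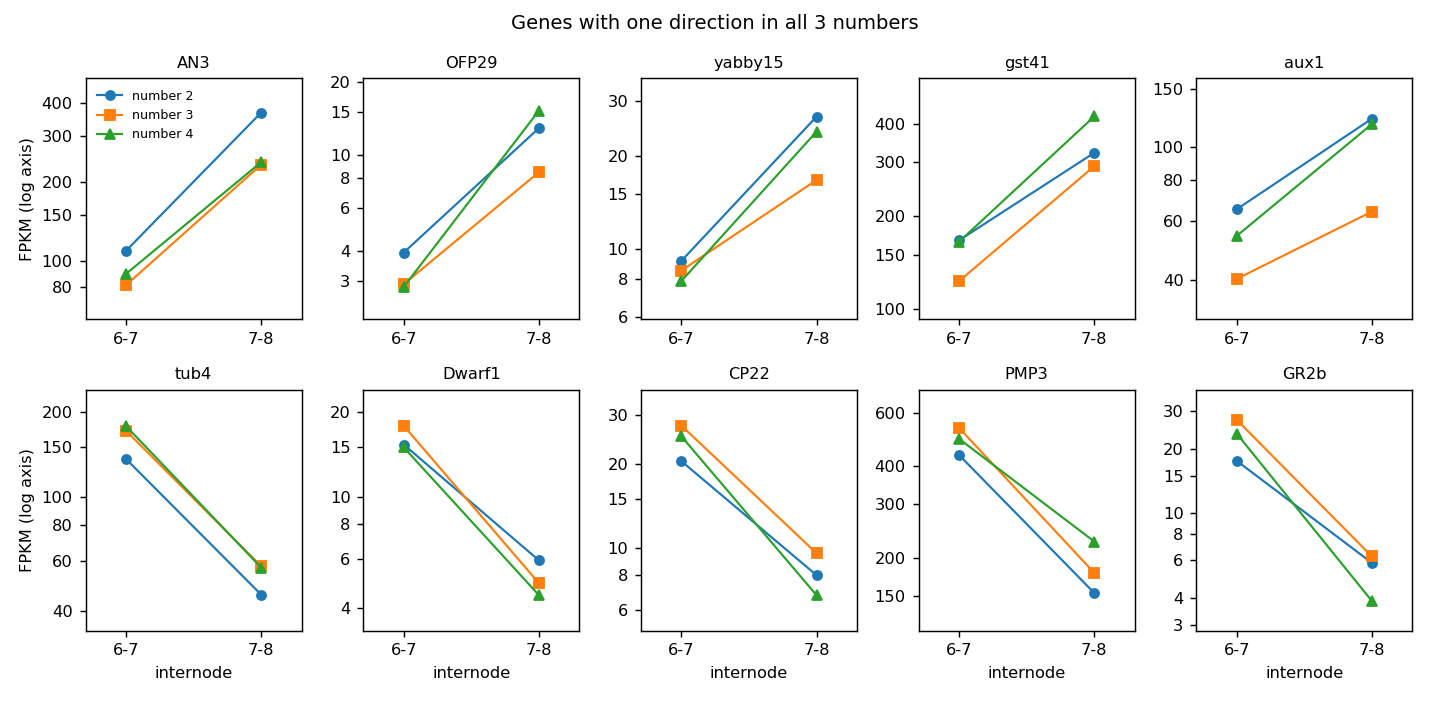
FPKM (log axis, scaled per panel) of 10 genes in the 3 libraries of internode 6-7 and of internode 7-8, with lines joining libraries that share a number. AN3, OFP29, yabby15, gst41 and aux1 slope upward and tub4, Dwarf1, CP22, PMP3 and GR2b slope downward in every number, and tub4 goes from 136 to 178 down to 45.6 to 57.4.

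The 23 lists of growth, wall and photosynthesis genes held 262 tested genes, and 0 of them were called with the block by limma. With the block 75 had an unadjusted p under 0.05, against 3765 of all 26608 tested genes. Without the block 3 were called, tub4, Dwarf1 and CP22, against 0.143% of all genes, and 69 had an unadjusted p under 0.05, against 3781 of all 26608. Of all tested genes 17.1% stepped up and 21.1% down in every number as deposited, and 20.7% and 19.1% after rescaling, while 8.37% were higher and 11.7% lower without overlap. Levels were compared per transcript length. The list medians shift by about 0.05 when libraries are rescaled by the median of ratios, since the median difference of all tested genes was -0.05 as deposited and 0.01 after scaling.

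Transcripts of cellulose synthase were lower in internode 7-8 for most of the family. Of 11 tested genes 8 stepped down in all 3 numbers, against 21.1% of all genes, 1 stepped up and 2 did neither, with a median difference of -0.58. In 7 of them the libraries of the internodes did not overlap (11.7% of all genes). None passed a test, with the lowest adjusted p at 0.154 for CesA-2 with the block and 0.0960 for CesA-7 without it (limma). An unadjusted p under 0.05 was found for 8 with the block and 7 without it, against 3765 and 3781 of all 26608 tested genes. CesA-7 (GRMZM2G025231) held 52.5, 40.8 and 50.3 FPKM in internode 6-7 and 28.7, 24.9 and 22.6 in internode 7-8. CesA-2 (GRMZM2G027723) held 69.1, 50.9 and 65.5 against 39.0, 31.0 and 36.3 FPKM. CesA-6 (GRMZM2G113137), among the most abundant, held 78.1, 70.5 and 76.1 against 46.6, 48.6 and 36.8. The steps of these 3 genes lay between -0.53 and -1.12. CesA-8, CesA-1, CesA-4 and CesA-9 also had steps below 0 in every number, between -0.41 and -0.89.

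Not all members went this way. CesA-3 (GRMZM2G039454) was higher in each number, at 38.1, 21.4 and 26.8 FPKM against 50.2, 30.8 and 42.4, with overlapping libraries. The 2 measured genes named cesa10 (GRMZM2G445905) and CesA12 (GRMZM2G142898) belong to the maize group tied to secondary walls. Their values were 61.1, 73.5 and 67.2 against 59.4, 74.1 and 55.7 FPKM for cesa10, and 4.45, 4.59 and 4.90 against 3.31, 3.85 and 3.16 for CesA12. The former differed little between the internodes and the latter was lower in each number by 0.20 to 0.51. Rescaling left the family count at 1 up and 8 down.

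Among tubulin genes, several of moderate level had lower values and the most abundant had no common direction. Of 12 tested members 6 stepped down in every number and 1 stepped up (median -0.17), against 21.1% and 17.1% of all genes, and rescaling made the counts 5 and 1. The alpha-tubulin gene tua6 (GRMZM2G083243) held 137, 129 and 137 FPKM against 51.5, 62.6 and 77.0, a difference of -1.08 (adjusted p = 0.153 with and 0.0779 without the block). Its relative tua5 (GRMZM2G099167) held 327, 383 and 427 against 218, 246 and 289.9 FPKM, and the beta-tubulin gene tub3 (GRMZM2G108766) 193, 208 and 214 against 124, 132 and 169. All of these had separate internodes, as had 5 of the 12 members and 11.7% of all genes in this direction. The 3 most abundant, tua4, TUA2 and tub5, had differences of 0.01, -0.06 and -0.08, and tua4 alone stood at 3216, 3061 and 3061 FPKM against 3338, 2483 and 3703. TUB1 (GRMZM2G164696) was higher in each number, at 593, 482 and 592 against 755, 558 and 858 FPKM. The summed level of the list overlapped, from 6986 to 7242 FPKM in internode 6-7 and 5680 to 7991 in internode 7-8.

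Actins and profilins, of the other filament system of the cell, were also mixed. Of 13 members 6 stepped down and 3 up in all numbers (5 and 3 after rescaling), against 21.1% and 17.1% of all genes, with a median of -0.10. One actin gene (GRMZM2G006765) held 128, 132 and 124 FPKM against 42.4, 67.5 and 79.3, and an Actin-7 gene (GRMZM2G082484) 131, 122 and 123 against 82.3, 74.1 and 69.9, each without overlap. The most abundant member, another Actin-7 gene (GRMZM2G067985), held 999, 959.7 and 967 against 976, 843 and 1081 FPKM. Reads of such near-identical genes can be shared, so values of single tubulin and actin genes are uncertain.

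**Figure D3:**
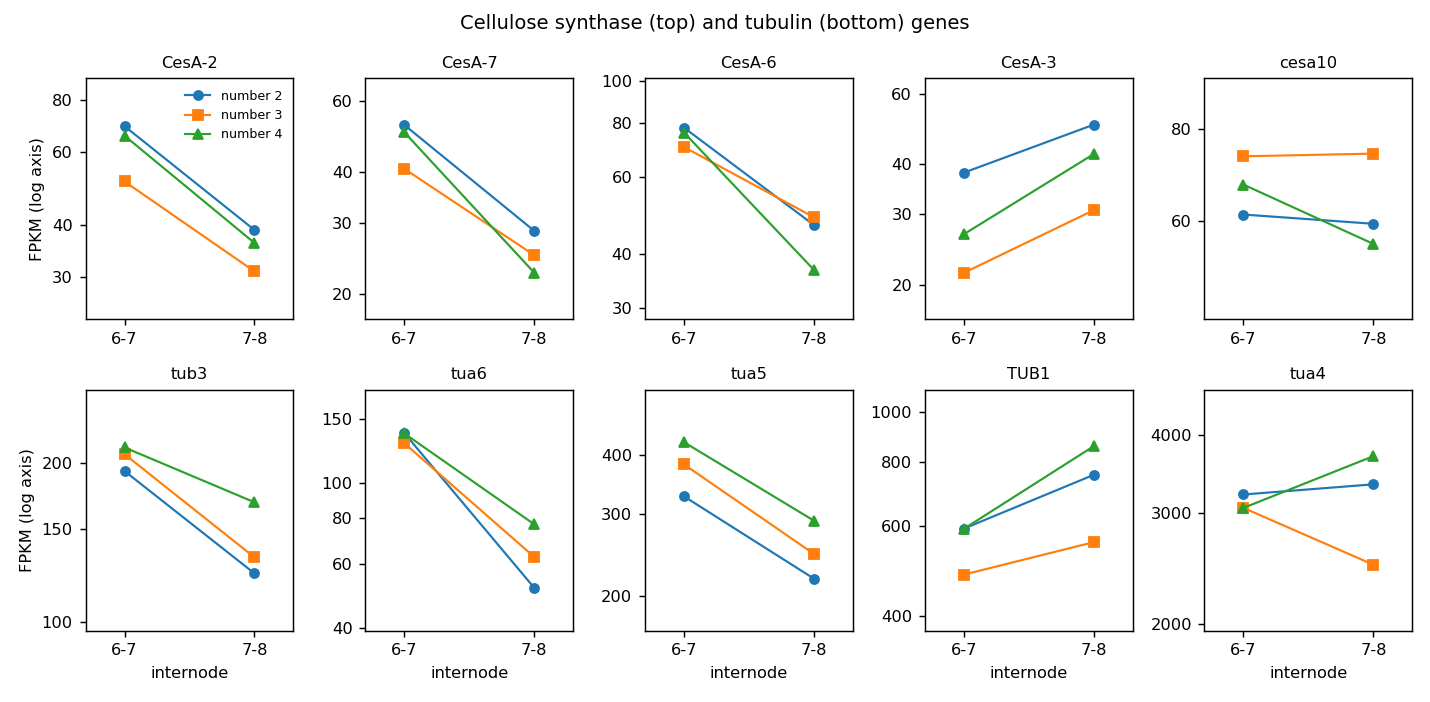
FPKM (log axis, scaled per panel) of 5 cellulose synthase genes (top) and 5 tubulin genes (bottom), with lines joining libraries that share a number. CesA-2, CesA-7, CesA-6, tub3, tua6 and tua5 slope downward in all 3 numbers, CesA-3 and TUB1 slope upward, and cesa10 and tua4 show no common slope.

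Expansin transcripts had no common direction. Of 12 members 4 were higher and 1 lower in every number, against 17.1% and 21.1% of all genes, and the median difference was 0.26 while the mean was -0.02. The list's median step was 0.50 in number 2, -0.06 in number 3 and 0.30 in number 4. Of the 4 higher members EXPB1 (GRMZM2G146551), which is also on the list of pollen-named genes, held 0.679 to 1.61 FPKM in internode 6-7 and 1.09 to 2.68 in internode 7-8, with overlap. The libraries of EXPB1B (GRMZM2G072886), at a like low level with steps of 0.28, 0.26 and 0.40, also overlapped. The alpha-expansin gene expa2 (GRMZM2G105844) held 24.4, 17.0 and 21.9 FPKM in internode 6-7 and 54.5, 27.5 and 45.1 in internode 7-8 without overlap, with steps of 1.13, 0.66 and 1.01 (adjusted p = 0.156 with the block). The beta-expansin gene expB3 (GRMZM2G474194) held 28.9, 32.6 and 37.5 against 60.4, 39.2 and 47.9. The lower one, expB6 (GRMZM2G176595), held 3.76, 7.95 and 6.87 FPKM against 1.05, 0.970 and 0.541, with an adjusted p of 0.0684 without the block and 0.153 with it. The most abundant expansin gene, expB8 (GRMZM2G013002), at 122, 119.6 and 130.3 FPKM against 219, 115 and 160.1, had 1 step below 0. The single tested xyloglucan-modifying gene, xth1 (GRMZM2G119783), was lower in each number, at 3.42, 4.23 and 3.37 against 1.76, 1.85 and 2.67 FPKM.

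Wall genes of other kinds were less uniform. Of 4 tested genes of the brittle stalk and COBRA family, which act in cellulose patterning, 3 stepped down in each number (4 after rescaling), against 21.1% of all genes, with a median of -0.35. Bk2L3 (GRMZM5G826714) held 92.3, 85.1 and 93.6 FPKM against 81.5, 57.9 and 63.6. Among 15 lignin enzyme genes 2 stepped up and 3 down (3 and 2 after rescaling), shares of 13.3% and 20.0% that lie near the 17.1% and 21.1% of all genes, with a median of -0.27. The most abundant, PAL1 (GRMZM2G074604), phenylalanine ammonia-lyase at the entry to the pathway, held 406, 365 and 527 FPKM against 611, 238 and 376, with steps of both signs. For ccoaomt1 (GRMZM2G127948), a methyltransferase gene of lignin monomer synthesis, the values overlapped at 79.3, 88.9 and 83.2 against 83.1, 61.4 and 66.0. In 5 proline-rich or glycine-rich wall protein genes the median was 0.25, and the level of the most abundant, grp1 (GRMZM2G080603), was 1447, 2864 and 2556 FPKM in internode 6-7 and 4953, 3032 and 1943 in internode 7-8. The cellulose synthase-like gene CSLD1 (GRMZM2G015886) held 81.0, 46.7 and 62.0 against 63.3, 48.8 and 98.0. Of 4 MYB and NAC genes of wall regulation 1 stepped down in every number, MYB167 (GRMZM2G037650), at 2.51, 2.17 and 1.83 against 0.913, 1.76 and 0.542 FPKM, and the list median of -0.02 became 0.03 after rescaling.

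Of 6 tested gibberellin genes 2 stepped down in every number, the synthesis genes Dwarf1 and d3, and 0 up, against 21.1% and 17.1% of all genes. The gene d3 (GRMZM2G093195), a cytochrome P450 gene of an earlier step than Dwarf1, held 2.97, 4.01 and 3.28 FPKM in internode 6-7 and 0.993, 1.26 and 0.947 in internode 7-8. Its steps of -0.99, -1.15 and -1.14 were alike and its internodes separate, with an adjusted p of 0.181 with and 0.0989 without the block. The DELLA genes D8 (GRMZM2G144744), at 147, 206 and 208 against 184, 179 and 236 FPKM, and d9 (GRMZM2G024973), at 42.3, 63.6 and 67.0 against 43.3, 46.9 and 55.3, overlapped. So did an1 (GRMZM2G081554), an early synthesis gene, at 6.23, 5.30 and 3.68 against 4.17, 7.08 and 2.98. Of 3 brassinosteroid genes, na1 (GRMZM2G449033), a steroid reductase gene of hormone synthesis, was higher in each number at 13.8, 10.6 and 12.2 against 14.2, 15.1 and 16.2 FPKM, and DWF1 (GRMZM2G057000) had steps of both signs.

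The 42 tested auxin genes had no common direction, with 11 higher and 11 lower in all numbers, or 26.2% each against 17.1% and 21.1% of all genes, and a median of 0.01 (15 and 8, and 0.06, after rescaling). The influx carrier gene aux1 (GRMZM2G129413), also listed as aic1, held 65.2, 40.3 and 54.2 FPKM against 122, 64.1 and 118. Its steps of 0.89, 0.66 and 1.10 were all upward although number 3 was low in both internodes and the libraries overlapped, and its adjusted p was 0.154 with the block and 0.254 without it. AUX27 (GRMZM2G142768) was higher in each number without overlap, at 26.9, 18.1 and 19.7 against 35.3, 28.5 and 36.1. ARF17 (GRMZM2G159399), an auxin response factor gene by its symbol, was lower, at 14.1, 15.9 and 13.6 against 7.51, 12.0 and 3.59 FPKM. The efflux carrier gene PIN1a (GRMZM2G098643) held 43.0, 37.7 and 46.3 against 52.2, 38.7 and 42.7, with steps of both signs.

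Growth-regulating factors and their coactivators stepped up in every number in 8 of 18 cases and down in none, against 17.1% and 21.1% of all genes, with a median of 0.17 (9 and 0 after rescaling). In 6 members, AN3 included, the internodes did not overlap (8.37% of all genes were higher without overlap). GRF4 (GRMZM2G004619) held 19.3, 20.6 and 20.9 FPKM against 38.5, 29.4 and 26.8, GRF10 (GRMZM2G096709) 28.3, 25.2 and 25.2 against 43.7, 32.1 and 37.8, and GRF2 (GRMZM2G099862) 27.9, 22.0 and 26.5 against 47.9, 44.2 and 28.3. These differences passed neither fit, with adjusted p of 0.287, 0.272 and 0.317 with the block. The list's median step was 0.58 in number 2, 0.36 in number 3 and -0.13 in number 4, while its summed level was higher in every number, at 396 to 417 FPKM in internode 6-7 and 532 to 873 in internode 7-8. GRF5 (GRMZM2G129147), with steps of 1.09, -0.19 and -1.10, and GRF6 (GRMZM2G041223), with steps of 0.68, -0.39 and -1.28, had opposite signs in numbers 2 and 4. A gene listed as atGRF5 (GRMZM2G105335) held 32.0, 37.3 and 33.6 FPKM against 89.2, 59.1 and 34.7, high in number 2 and level in number 4.

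KNOX genes stepped up in every number in 8 of 10 cases and down in none, against 17.1% and 21.1% of all genes, with a median of 0.22 (7 and 0 after rescaling). The homeobox gene kn1 (GRMZM2G017087), a regulator of meristem maintenance, held 172, 149 and 153 FPKM in internode 6-7 and 247, 195 and 307 in internode 7-8. The libraries of the internodes did not overlap for kn1, for knox4 (GRMZM2G452178) at 22.4, 31.9 and 34.6 against 53.3, 39.0 and 36.8, and for knox7 (GRMZM2G433591) at 19.6, 16.8 and 18.1 against 29.2, 20.0 and 22.9. The adjusted p was 0.259 for kn1 with the block, the lowest of the list. The exceptions were knox8 (GRMZM2G135447), at 22.9, 26.6 and 24.1 FPKM against 23.3, 21.9 and 16.8, and lg4b (GRMZM5G832409), with steps of both signs. The summed level of the 17 tested of 38 genes with names of MADS-box genes, read as markers of spikelet tissue, did not overlap between the internodes, at 273 to 343 FPKM in internode 6-7 and 375 to 394 in internode 7-8. Of the 17, 7 were higher and 2 lower in every number, or 41.2% and 11.8% against 17.1% and 21.1% of all genes. Without overlap 5 were higher and 2 lower, or 29.4% and 11.8% against 8.37% and 11.7% of all genes. Most of that sum lay in zmm19 (GRMZM2G370777), at 126 to 200 FPKM, MADS34 (GRMZM2G137510), at 48.2 to 68.9, and MADS67 (GRMZM2G147716), at 29.3 to 52.0, and zmm19 is known from vegetative organs of maize. Members with known roles in floral organs were near 0, with zag2 at most 0.868 FPKM, zmm27 at most 0.722 and zmm29 at most 0.152. The part of spikelet tissue in the values of the growth genes was not tested.

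Cell cycle genes showed no common direction, with 2 higher and 4 lower of 29 in all numbers, against 17.1% and 21.1% of all genes, and a median of -0.03 (3 and 4, and 0.03, after rescaling). The list includes 7 krp genes, which the reference also names kin, for kinesins, the motor proteins of microtubules. Of the lower ones, krp15 (GRMZM2G054418) held 26.6, 23.9 and 22.4 FPKM against 13.4, 18.0 and 11.4 and krp9 (GRMZM5G881464) 40.1, 34.0 and 36.3 against 28.1, 26.6 and 26.6. The D-type cyclin gene cycD2 (GRMZM2G075117) was lower, at 91.3, 97.6 and 92.6 against 81.5, 80.9 and 64.8, whereas cycD4 (GRMZM2G133413) was higher, at 2.55, 2.52 and 2.22 against 5.24, 4.51 and 3.63. Some replication genes, picked after their values were seen, were higher in number 2 and lower in number 4: pcna2 (GRMZM2G108712), the sliding clamp of DNA polymerase, had steps of 0.78, 0.35 and -0.10, PCNA (GRMZM2G030523) of 0.72, 0.22 and -0.29, and the helicase genes MCM6 of 0.52, 0.45 and -0.34 and MCM7 of 0.54, 0.42 and -0.44. For histone genes the list median was -0.11 in number 2, 0.29 in number 3 and 0.61 in number 4, and 4 of 11 were higher in every number (6 after rescaling), against 17.1% of all genes (20.7%). The linker histone gene his1a (GRMZM2G401308) held 1981, 1569 and 1614 FPKM against 1782, 2127 and 3668, and the core histone gene H3C2 (GRMZM2G401581) 120.3, 131 and 141 against 153, 156 and 248.

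Aquaporin and sucrose genes were uneven across numbers. Of 15 aquaporins 5 stepped down in all numbers and 0 up, against 21.1% and 17.1% of all genes, with a median of -0.31. After rescaling the counts were 3 and 0, and the lower share of 20.0% lay near the 19.1% of all genes. PIP1-1 (GRMZM2G174807), a plasma membrane water channel gene, held 1138, 804 and 741 FPKM against 275, 404 and 701, with steps of -2.04, -0.99 and -0.08. Number 2 thus showed a large difference and number 4 almost none. PIP2-1 (GRMZM2G014914) had steps of -0.67, -0.21 and 0.10. Of 7 sucrose genes 3 were lower in each number, against 21.1% of all genes, with a median of -0.44. The sucrose synthase gene sus1 (GRMZM2G152908) held 2273, 3205 and 3624 FPKM against 815, 2006 and 1669, without overlap (adjusted p = 0.184 with the block). The sucrose transporter genes sut4 (GRMZM2G307561), at 17.7, 20.0 and 23.7 against 13.1, 12.3 and 8.05, and sut1 (GRMZM2G034302), at 9.83, 9.31 and 12.2 against 8.15, 6.14 and 7.98, were also lower. The second sucrose synthase gene, sh1 (GRMZM2G089713), held 103, 138 and 151 against 157, 103 and 78.7 and had steps of both signs.

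**Figure D4:**
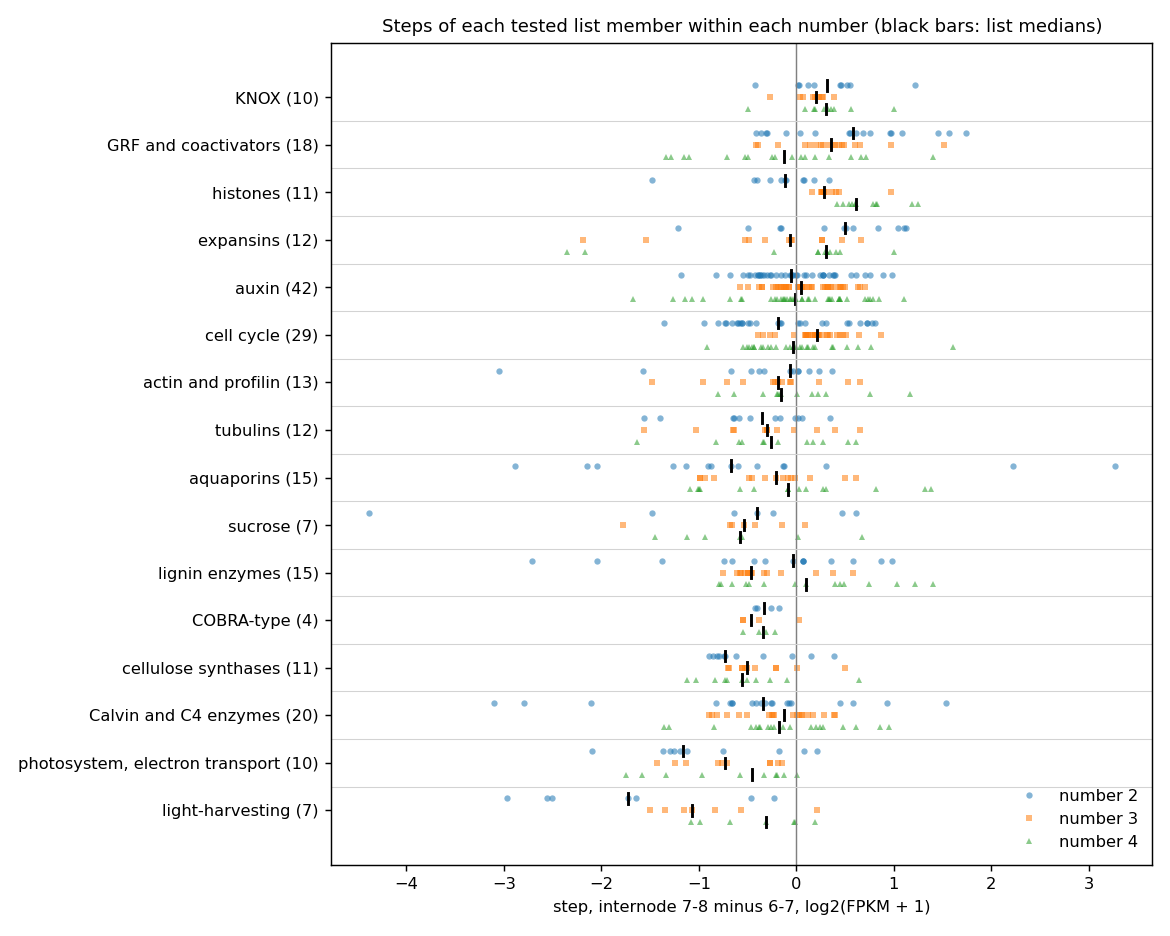
Steps of every tested member of 16 lists (number of members in brackets), internode 7-8 minus 6-7 on the log2(FPKM + 1) scale, with blue circles for number 2, orange squares for number 3 and green triangles for number 4, and black bars at the list medians. Cellulose synthase medians lie between -0.50 and -0.73 in the 3 numbers, while light-harvesting medians spread from -1.73 to -0.31 and histone medians from -0.11 to 0.61.

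Most photosystem and light-harvesting transcripts were lower in internode 7-8, to a degree that varied with the library. Of 10 photosystem and electron transport genes 7 stepped down in every number and 0 up (6 and 0 after rescaling), against 21.1% and 17.1% of all genes, with a median of -0.88. In 5 of them the internodes did not overlap, as in 11.7% of all genes. FDX1 (GRMZM2G122337), the leaf ferredoxin gene, held 28.6, 63.5 and 68.5 FPKM in internode 6-7 and 12.6, 26.1 and 26.5 in internode 7-8. Its steps of -1.12, -1.25 and -1.34 were close while both number 2 libraries were low, and its adjusted p was 0.133 with the block and 0.253 without it. The genes fdx3 (GRMZM2G053458) and FDX6 (GRMZM2G106190), which encode ferredoxins of non-photosynthetic tissue, had differences of -0.19 and -0.09. The difference between ferredoxins was not tested. Genes of photosystem I subunits were lower as well, with psaH (GRMZM2G451224) at 91.2, 138 and 116 FPKM against 20.7, 78.6 and 77.5, psad1 (GRMZM2G024150) at 7.70, 17.0 and 13.2 against 4.18, 7.22 and 3.73, and psaN (GRMZM2G080107) at 53.5, 129 and 96.9 against 20.1, 75.8 and 48.9. The values of psaN overlapped and those of psaH and psad1 did not.

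Of 7 light-harvesting genes 5 stepped down in each number (3 after rescaling), against 21.1% of all genes, with a median of -1.05. Of the 7 only lhcb6 was separate, a share near the 11.7% of all genes. The antenna protein gene lhcb6 (GRMZM2G092427), also listed as CP24, held 72.3, 134 and 112 FPKM against 22.5, 51.9 and 69.4. The abundant cab-m9 (GRMZM2G155216) held 299, 385 and 407 against 37.3, 172 and 404, with steps of -2.97, -1.16 and -0.01, and Cab-m7 (GRMZM2G402936) 648, 716 and 777 against 113, 401 and 889, with steps of -2.51, -0.84 and 0.19. Internode 7-8 number 2 was thus far below every other library for both genes, and number 4 lay within or above the range of internode 6-7. The summed level of the list was 1123, 1455 and 1494 FPKM in internode 6-7 and 194, 717 and 1479 in internode 7-8. In CP22, by comparison, all 3 internode 7-8 libraries lay below internode 6-7.

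Genes of carbon fixation and chlorophyll synthesis followed in part. Of 20 genes caught by names of Calvin cycle and C4 enzymes 7 stepped down and 0 up, against 21.1% and 17.1% of all genes, with a median of -0.11. The 7 include the most abundant members, the malate dehydrogenase genes mdh4 (GRMZM2G415359), also listed as CYTMDH, and mdh2 (GRMZM2G154595). These were caught by name and need not act in carbon fixation. GAPA (GRMZM2G337113), the chloroplast glyceraldehyde-phosphate dehydrogenase gene, held 54.8, 70.7 and 58.8 FPKM against 12.0, 42.7 and 23.2 without overlap. One rbcS gene (GRMZM2G098520), for the small subunit of Rubisco, held 76.2, 108 and 87.7 against 42.6, 75.5 and 73.2, while the other (GRMZM2G113033) held 49.1, 29.0 and 26.3 against 4.85, 16.1 and 37.2. The phosphoenolpyruvate carboxykinase gene pck2 (GRMZM5G870932) was lower at 22.9, 24.7 and 23.9 against 14.1, 16.1 and 17.7. In 6 genes caught by names of chlorophyll synthesis and plastids 3 stepped down (2 after rescaling) with a median of -0.23. ChlI (GRMZM2G419806), a magnesium chelatase subunit gene, held 47.3, 69.8 and 71.7 against 43.9, 55.4 and 58.5 FPKM, with overlap. Another of the 3, por1 (GRMZM2G155021), is also listed as porin1, a porin and no chlorophyll gene, and held 25.8, 31.5 and 30.3 against 15.6, 23.3 and 21.9.

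Markers of leaf were read beside these values. Of 18 leaf markers 15 were tested, and their summed level was 1299 to 1647 FPKM in internode 6-7 and 278 to 1632 in internode 7-8. In every number 7 were lower and 0 higher, against 21.1% and 17.1% of all genes. After rescaling these were 5 and 0, against 19.1% and 20.7%. Most of these markers are photosynthesis genes of the lists above, and the part of leaf tissue in those values was not tested. Of the markers named for C4 enzymes, pep1 (GRMZM2G083841) was at most 0.0683 FPKM in any library and at 0 in 3, a PPDK gene (GRMZM2G097457) was at most 0.192, and me3 (GRMZM2G085019) lay between 0.660 and 1.27. The C4 PPDK gene pdk1 (GRMZM2G306345) was low but lower in every number without overlap, at 0.854 to 2.09 FPKM against 0.175 to 0.398. A second gene named Pep1 (GRMZM5G899080) held 2.32 to 5.03 FPKM. Both genes named PDK1 (GRMZM2G107196 and GRMZM2G097821) held 9.65 to 12.8 and 17.4 to 24.6 FPKM. These were caught by name and need not be C4 or leaf genes. Of 35 endosperm markers 3 were tested and 30 were at 0 in every library. The tested ones were bt2 at 13.9 to 20.8 FPKM, du1 at 2.17 to 6.99 and zp15 at 0.0929 to 1.86. Of 5 root markers 1 was tested, rth3 (GRMZM2G377215). It held 12.1 to 15.6 FPKM in internode 6-7 and 15.7 to 19.9 in internode 7-8, while 8.37% of all genes were higher without overlap. Of 6 pollen-named genes all were tested, 4 of them higher in every number, against 17.1% of all genes. The summed level of this list was 933 to 988 FPKM in internode 6-7 and 890 to 1046 in internode 7-8. It lay almost wholly in ZmABP3 (GRMZM2G060702), which was caught by its name and need not be a pollen gene. The other members of the list held 0.418 to 5.18 FPKM. Of the lists read as stem markers, 11 of 15 cellulose synthase and 4 of 8 brittle stalk and COBRA genes were tested. So were 15 of 24 lignin enzyme genes. The gene bk2 (GRMZM2G109326) was not among those tested, and kn1 held 149 to 307 FPKM.

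In some genes of the lists, picked by rule or after their values were seen, the steps changed sign between numbers. The same libraries stood out in several of these picked genes. CCR (GRMZM2G131205), cinnamoyl-CoA reductase of lignin synthesis, held 76.1, 40.5 and 34.2 FPKM in internode 6-7 numbers 2, 3 and 4 and 10.8, 28.5 and 71.2 in internode 7-8. The same libraries, internode 6-7 number 2 and internode 7-8 number 4, were the highest for 4CL (GRMZM2G075333), a ligase gene of the same pathway, at 49.0, 16.5 and 15.4 FPKM against 11.1, 14.7 and 42.4. They were also the highest for NIP2-2 (GRMZM2G137108), of a silicon channel family in grasses, at 23.1, 6.31 and 6.97 against 2.25, 4.32 and 19.7. For all 3 genes internode 7-8 number 2 was the lowest library. The opposite order held for TIP4-2 (GRMZM2G108273), a vacuolar aquaporin gene, at 3.58, 8.10 and 11.3 against 43.2, 13.0 and 4.78, and for a gene listed as atGRF2 (GRMZM2G033612), at 5.38, 12.2 and 11.3 against 17.9, 16.4 and 3.88. Of 2 more genes, singled out after their values were seen, the soluble acid invertase gene ivr2 (GRMZM2G089836) held 185, 51.4 and 52.4 against 7.89, 14.3 and 84.4 FPKM and the Rubisco activase gene Rca (GRMZM2G162200) 8.51, 4.73 and 3.00 against 0.369, 2.15 and 6.76. Steps of these genes within a number ran from -4.39 to 3.27, and no difference between internodes passed either fit. CCR, 4CL, NIP2-2, TIP4-2 and atGRF2 were chosen because their steps reach 1 in both signs. For them the wide range and the lack of a call follow largely from that choice. That choice also favours genes with libraries at opposite extremes, so the repetition of libraries is no separate result. The adjusted p with the block was 0.655 for CCR, 0.873 for 4CL, 0.728 for NIP2-2, 0.619 for TIP4-2 and 0.420 for ivr2.

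**Figure D5:**
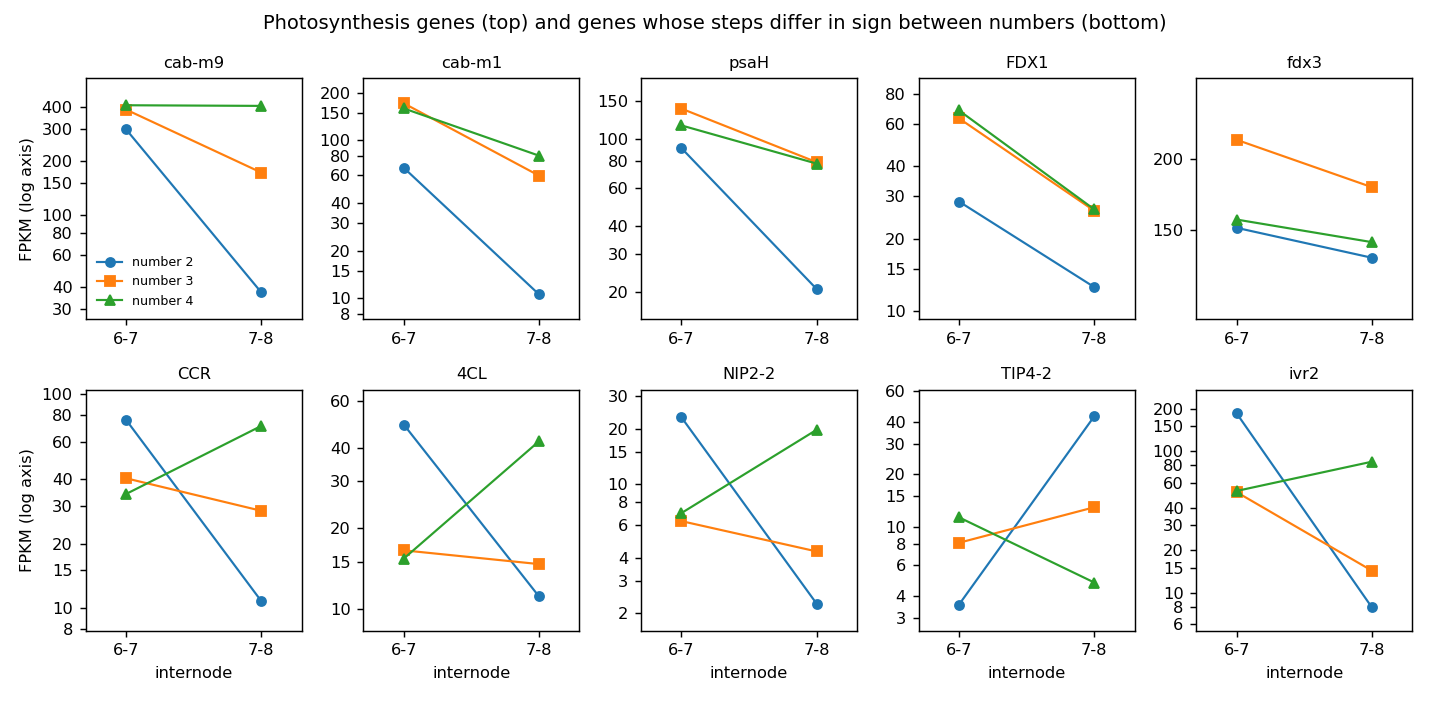
FPKM (log axis, scaled per panel) of 5 photosynthesis and ferredoxin genes (top) and of 5 genes whose steps differ in sign between numbers (bottom), with lines joining libraries that share a number. The slope of cab-m9 is steep in number 2 and flat in number 4, FDX1 has 3 similar slopes, and in CCR, 4CL, NIP2-2 and ivr2 the line of number 2 slopes steeply down from the highest internode 6-7 value while that of number 4 slopes up.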

How the data were processed

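Stranded TruSeq libraries of polyA-selected RNA were sequenced, per the labels' protocols. Cufflinks 2.1.1, TopHat2 2.0.8b and Bowtie2 2.1.0 are named in the submitters' processing notes. The sources used here give no genome build, annotation, counting strand or read number, and overlapping or antisense genes may have been mixed. The authors deposited one FPKM table with 109715 rows and 68 columns of values, of which 57 matched no label by name and were not used here. The 6 internode columns carry numbers 2 to 4 while sample titles run otherwise, so a column stands for its internode and no single sample. No pair held identical values. Judged by the smallest values, relative depth lay between 0.86 and 1.24 times that of internode 6-7 number 2.

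Of these rows 5 lacked a value and 67704 were at 0 in all 6 libraries. The 26608 genes that reached 1 FPKM in 2 or more of these 6 libraries were tested. limma 3.58.1 in R 4.3.3 was run on log2(FPKM + 1) (two-sided, with a trend of variance on mean), with the number as a block (the chosen fit) and without it, and Benjamini-Hochberg adjustment over all tested genes. The fits were also run on simulated data, and the outcome is not reported here. Names came from a RefSeq table of a later assembly, which covered 14826 tested genes and named 2011; 413 matched more than 1 reference gene, so shared names are uncertain. Gene lists are patterns on these symbols, which can catch unrelated genes. Members and lists were chosen with earlier results of these data known, and no list was tested as a set. Named genes had a mean of at least 5 FPKM and came by rule: the 10 in each direction with the largest smallest step, up to 4 members a list with one direction in all numbers, up to 2 at the highest level, up to 5 whose steps reach 1 in both signs, and the 6 genes an earlier analysis named. Other list members are given as examples or exceptions and were chosen after their values were seen. Sequences and promoter motifs were not analysed here. Alternatives were other pseudocounts, filters, scaling, a fit without trend or minimum difference, leaving out genes at 0, libraries or numbers, and a fit with all 11 matched libraries. Values of 1 list member are not reported here.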

Additional observations from a re-analysis of the deposited data

How the results depend on the processing

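With the number as a block 4 genes were called. The count was 2 with a pseudocount of 0.1, 2 without a filter on low values, 2 with at least 5 FPKM in 3 libraries, 0 without genes at 0 in all libraries of one internode (chosen after seeing the data) and 38 without the block. Leaving out one number at a time gave 5 to 25 calls, the highest without number 2. Without the block the count of 38 became 13 with a pseudocount of 5, 11 without a filter, 25 with at least 5 FPKM in 3 libraries, 21 after median-of-ratios scaling and 1 without genes at 0 in all libraries of one internode. Leaving out one library at a time gave 14 to 74 calls, with 14 without internode 7-8 number 2, 16 without its number 4, 74 without its number 3, and 24 and 22 without internode 6-7 numbers 3 and 4. The other settings stayed within 1.5 times the count, and the fit of all 11 libraries called 39. The causes of these shifts were not tested. The labels do not say that a number marks a shared plant or day. The r of deviations passed 0.1 in 1 of 3 same-number pairs. It cannot show what same-number libraries share, since the deviations within an internode sum to 0 and the r values constrain each other. What a number marks stays unknown, and the loss of calls under the block says nothing about the size of an effect. Internode 6-7 number 2 correlated best with internode 7-8 number 4, internode 6-7 number 4 with internode 7-8 number 2, and internode 6-7 number 3 with its own number. Genes stepping up in every number were 4551 and genes stepping down 5618; after scaling they were 5501 and 5087, so the larger side depends on the scaling. Over 2233 refits of 77 named genes no direction reversed, 43 lost and 8 gained a call. All 77 genes stepped in one direction in every number, so their choice left little room for a reversal. Named genes with steps of both signs were not among them. The gained calls of tub4, Dwarf1, CP22, GR2b and PMP3 in the blocked fit are those of the fit without the block, counted again as an alternative. The promoter motif description was not run. Dropping the minimum difference added no call to either fit, so no gene with a difference under 1 on the log2 scale passed the adjusted p alone.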
